A study of Mus musculus with 4 samples.

Results

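The 44 genes described here act in the cell division cycle. They were taken by name and divided by the phase in which their products work, 17 in S phase and 27 in mitosis. Each of them had a probe on the arrays, which carried 32575 genes or identifiers in all. RNA had been taken from 2 tissues, spinal cord and duodenum, of 20-week-old males that were either WT littermates or labelled IP6K2 KO. In the KO allele, exon 6 of the gene for inositol hexakisphosphate kinase 2, an enzyme that makes the inositol pyrophosphate IP7, is deleted in all tissues. All mice were raised on the normal diet CE-2, spent 1 week on the purified diet iVid-neo and had no food in the final 48 h. Each combination of genotype and tissue was measured on 1 array, so 4 one-colour arrays were compared in all, and no difference between genotypes has a replicate or a test.

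The 75th percentile of the processed signal was 905 and 971 on the WT and KO spinal cord arrays but 68.0 and 323 on the WT and KO duodenum arrays. Levels are therefore given as log2 of the processed signal minus this percentile of the same array. A probe was counted as measured when the scanner software called it well above background, which held for 75.5% and 76.1% of all genes on the spinal cord arrays and for 51.8% and 65.6% on the duodenum arrays. The Ip6k2 probe, for which the sources used here do not say where it lies in the gene, differed by 1.45 on the log2 scale in the spinal cord, higher on the KO array, and by −0.21 in the duodenum. Genotypes are given as labelled for this reason. All 11 neuron and all 10 oligodendrocyte markers were measured on both spinal cord arrays, and all 18 enterocyte markers on both duodenum arrays.

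Cells copy their DNA in S phase and divide the copies in mitosis, and the genes of the phases are switched on in turn. E2F factors drive the S-phase genes, whose products load and fire the MCM helicase and supply nucleotides. The mitotic genes follow later through the CCAAT box and the cell cycle homology region (CHR) of their promoters, bound by NF-Y and by the DREAM and MYB-FOXM1 complexes. In the adult duodenum, the crypts divide throughout life, whereas most cells of the adult spinal cord have left the cycle.

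Many promoters of the members hold letters of these elements. Those of Ccne1, Tk1, Tyms, Birc5, Mad2l1, Melk and Nusap1 hold none of the letters searched. Promoters are given for the 2 genes of each phase with the most occurrences. Among these, Mcm6 tied with Mcm3 and Mcm5 at 5 in all and was taken for its 3 E2F matches. RefSeq promoters of the GRCm38.p6 build, each 250 bases before to 50 bases after a transcription start, were at hand for 35 members, 14 of S phase and 21 of mitosis. Promoters of Gins2, Ccne2, Ccna2, Foxm1, Kif20a, Cdc25c, Aurkb, Mcm4 and Tpx2 were not used here. The E2F letters TTTCCCGC, TTTGGCGC, TTTCGCGC and TTTGCCGC, the CHR letters TTTGAA and TTCGAA and the CCAAT box CCAAT were searched on both strands. E2F letters stood in 6 of 14 S-phase and 1 of 21 mitotic members (Cdk1), and in 2.6% of all 27025 genes with a promoter. CHR letters stood in 3 of 14 S-phase and 15 of 21 mitotic members, and in 21.7% of all genes. A CCAAT box stood in 9 of 14 and 17 of 21, and in 41.1% of all genes. By promoter rather than by gene, the shares over all 32851 promoters were 2.26%, 19.2% and 37.4%. In the sequences below, all on the strand of the gene, capitals mark the letters of any of these motifs in either orientation. Mcm7 lies at chr5:138171834-138172133 on the minus strand, Mcm6 at chr1:128359656-128359955 on the minus strand, Top2a at chr11:99024140-99024439 on the minus strand and Ube2c at chr2:164769679-164769978 on the plus strand. These are matches of letters, and no binding was measured.
Mcm7: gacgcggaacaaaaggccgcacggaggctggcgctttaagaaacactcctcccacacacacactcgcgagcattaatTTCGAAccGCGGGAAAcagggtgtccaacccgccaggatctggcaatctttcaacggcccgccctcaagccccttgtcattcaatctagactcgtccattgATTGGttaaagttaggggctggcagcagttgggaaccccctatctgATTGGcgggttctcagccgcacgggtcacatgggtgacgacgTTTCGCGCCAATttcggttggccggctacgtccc
Mcm6: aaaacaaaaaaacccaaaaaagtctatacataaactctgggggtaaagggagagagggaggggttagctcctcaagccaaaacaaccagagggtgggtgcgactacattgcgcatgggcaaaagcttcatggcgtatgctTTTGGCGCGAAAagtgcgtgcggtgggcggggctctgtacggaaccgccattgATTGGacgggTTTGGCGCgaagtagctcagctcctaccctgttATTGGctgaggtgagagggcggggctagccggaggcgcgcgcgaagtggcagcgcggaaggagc
Top2a: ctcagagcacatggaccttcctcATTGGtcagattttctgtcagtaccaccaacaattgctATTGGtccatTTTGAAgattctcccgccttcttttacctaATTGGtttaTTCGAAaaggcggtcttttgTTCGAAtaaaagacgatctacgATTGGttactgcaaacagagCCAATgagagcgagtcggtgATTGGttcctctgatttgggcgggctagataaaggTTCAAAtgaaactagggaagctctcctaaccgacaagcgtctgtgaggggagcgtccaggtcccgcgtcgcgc
Ube2c: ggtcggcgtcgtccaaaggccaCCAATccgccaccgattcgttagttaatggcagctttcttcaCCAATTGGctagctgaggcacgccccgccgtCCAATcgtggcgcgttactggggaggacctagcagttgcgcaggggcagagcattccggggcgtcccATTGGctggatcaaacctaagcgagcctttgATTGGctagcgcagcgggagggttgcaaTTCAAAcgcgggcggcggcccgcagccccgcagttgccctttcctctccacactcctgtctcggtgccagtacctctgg

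The promoter of Mcm6 held 3 E2F matches, a pair of which overlap between 110 and 99 bases before the start, and no CHR match. That of Mcm7 held 2 E2F matches, 3 CCAAT boxes and 1 CHR match, and its second E2F match overlaps a CCAAT box just after the start. Mcm7 has a second promoter in the table, which held 1 CCAAT box only. The promoter of Top2a held 4 CHR matches and 6 CCAAT boxes and no E2F match. That of Ube2c held 1 CHR match and 6 CCAAT boxes, of which a pair overlap. In both mitotic genes the CHR match nearest to the start lay within 29 bases before it.

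Of the 44 members, 38 were measured on the WT spinal cord array, 40 on the KO spinal cord array, 32 on the WT duodenum array and 40 on the KO duodenum array. Of these, 32 were measured on all 4 arrays, 13 of S phase and 19 of mitosis. The probes of Ccne2 (a cyclin E), Aurkb (the kinase of the chromosomal passenger complex), Ttk (the checkpoint kinase MPS1) and Cenpf (a kinetochore protein) were not well above background on any array, with signals between 0.871 and 2.36. Nothing can be said of these 4 genes from these probes. The remaining 8 were measured on 1 to 3 arrays. Cdc6 and Bub1 were measured on both KO arrays and on neither WT array, and the probes of Cdc45, Tyms, Cdc25c, Bub1b, Kif11 and Tpx2 were missed on the WT duodenum array alone. These counts are for the brightest probe of each gene, and a second probe of Tpx2 was measured on all 4 arrays. Of all genes, 75.5% were measured on the WT and 76.1% on the KO spinal cord array. On the duodenum arrays the shares were 51.8% on WT and 65.6% on KO.

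**Figure D1:**
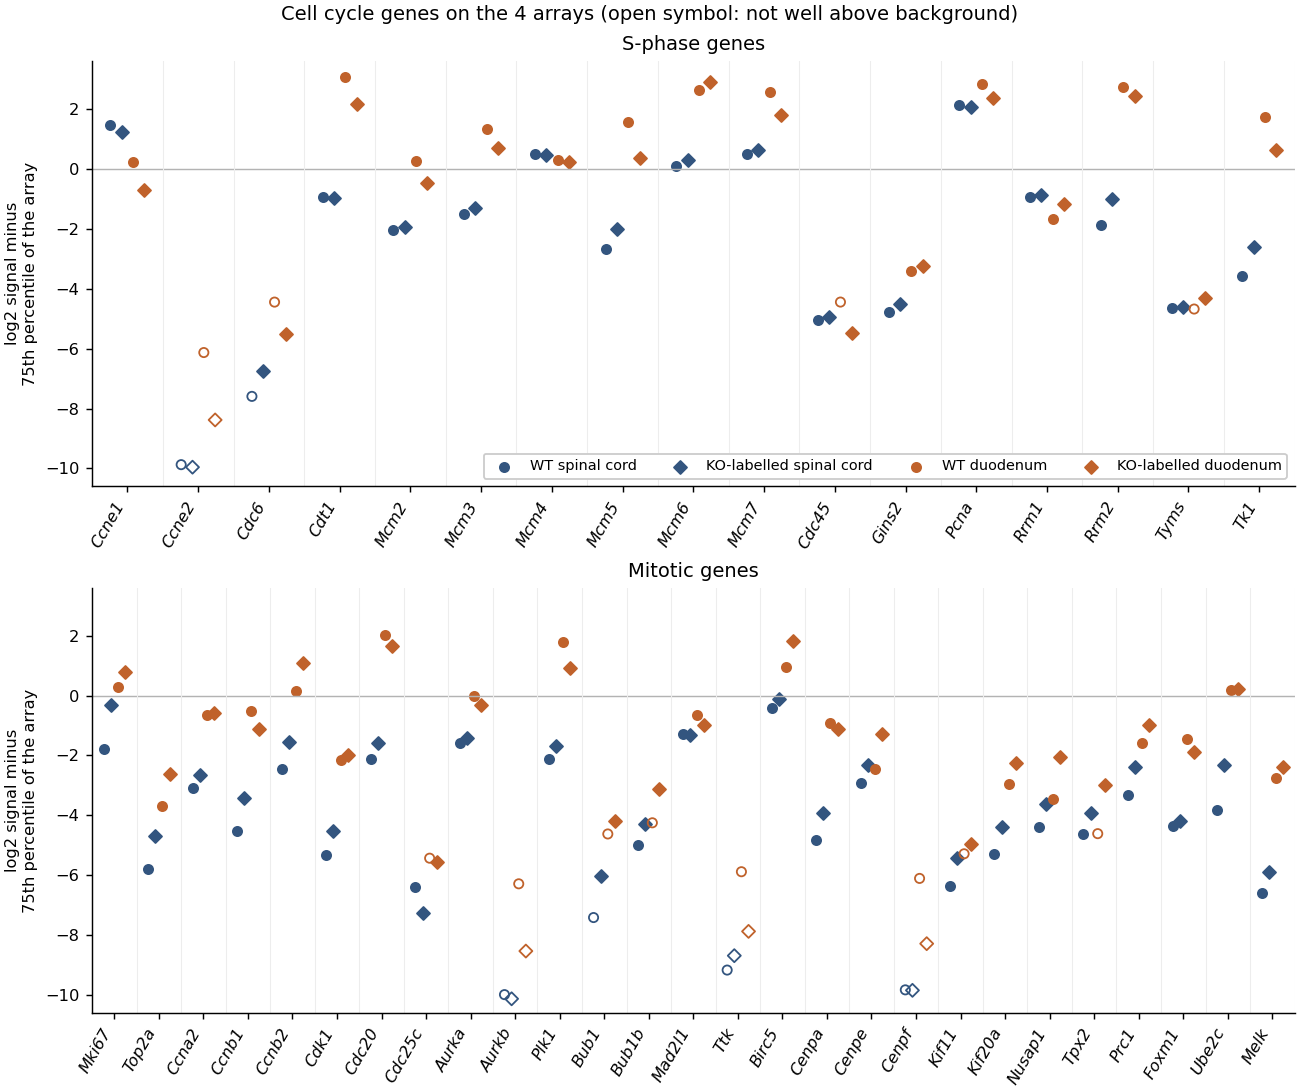
Level of each of the 44 genes on the 4 arrays, as log2 of the processed signal minus the 75th percentile of the array (y axis), with S-phase genes in the upper and mitotic genes in the lower panel. Circles are WT and diamonds KO arrays, blue is spinal cord and orange duodenum, and open symbols are not well above background. Most genes lie higher in the duodenum, Ccne1 lies higher in the spinal cord, and Ccne2, Aurkb, Ttk and Cenpf are open on all 4 arrays.

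The division genes were mostly higher in the duodenum than in the spinal cord. The tissues were compared with limma over the 4 arrays, with the genotype label as a covariate and each array centred on the median of the 16183 genes measured on all 4. Of the 32 members tested, 26 were called higher in the duodenum (Benjamini-Hochberg adjusted p under 0.05), against 37.1% of all genes tested, and 1 was called lower, against 21.6% of all genes. By phase, 9 of 13 S-phase and 17 of 19 mitotic members were called higher. The median log2 difference was 1.74 over the S-phase and 2.10 over the mitotic members, when the median of all genes was 0.38. The arrays of each label gave the same order, with medians over the members measured on both arrays of 2.39 in WT (32 members, all genes 0.63) and 1.78 in KO (40 members, all genes 0.30). The p-values rest on 1 residual degree of freedom, to which limma adds 8.05 from the spread of all genes tested. They also rest on arrays of different genotype labels. In bulk tissue, fewer cells of a type and less RNA per cell cannot be told apart.

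The largest tissue difference in favour of the duodenum was that of Tk1, thymidine kinase, which salvages thymidine for DNA synthesis. Its level was −3.58 and −2.61 on the WT and KO spinal cord arrays and 1.74 and 0.65 on the WT and KO duodenum arrays, so both duodenum arrays lay above both spinal cord arrays. The difference was 4.14 ± 0.51 on the log2 scale (SE, limma adjusted p = 0.000151). Rrm2, the regulated subunit of ribonucleotide reductase, was at −1.89 and −1.01 in the spinal cord and at 2.73 and 2.44 in the duodenum, in the order WT, KO used from here on. It differed by 3.89 ± 0.42 (SE, limma adjusted p = 7.02e-05). Rrm1, the large subunit of the same enzyme, did not follow. Its levels were −0.94 and −0.88 in the spinal cord and −1.68 and −1.18 in the duodenum, and it differed by −0.66 ± 0.38 (SE, limma adjusted p = 0.158).

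The MCM genes encode the hexameric ring that unwinds DNA at the fork. Of its 6 subunits, 5 were called higher in the duodenum, by between 1.48 (Mcm7) and 3.16 (Mcm5) on the log2 scale, and Mcm4 was not, at −0.34 ± 0.37 (SE, limma adjusted p = 0.45). Cdt1, which loads the ring at origins, was at −0.95 and −0.97 in the spinal cord and at 3.05 and 2.15 in the duodenum and differed by 3.41. Gins2, a subunit of the complex that activates the helicase, differed by 1.16. Pcna, the sliding clamp of the replication fork, was at 2.12 and 2.07 in the spinal cord and at 2.84 and 2.38 in the duodenum, and its difference of 0.36 was not called. Ccne1, a cyclin that starts S phase with CDK2, was the member called lower in the duodenum. It was at 1.47 and 1.24 in the spinal cord and at 0.24 and −0.70 in the duodenum, a difference of −1.73 ± 0.39 (SE, limma adjusted p = 0.0045). Its second probe, measured on both spinal cord arrays, was measured only on the KO array in the duodenum.

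Among the mitotic genes, Cdc20, the activator of the anaphase-promoting complex, had levels of −2.13 and −1.58 in the spinal cord and 2.02 and 1.66 in the duodenum and differed by 3.54 ± 0.40 (SE, limma adjusted p = 9.52e-05). Melk, a kinase of dividing cells, differed by 3.52, Cenpa, the histone H3 variant of centromeres, by 3.21, Ube2c, the ubiquitin-conjugating partner of the anaphase-promoting complex, by 3.13, and Plk1, a kinase of mitotic entry and spindle assembly, by 3.11. The B-type cyclins Ccnb1 and Ccnb2 differed by 3.03 and 2.48 and their kinase Cdk1 by 2.70. Mki67, the Ki-67 antigen that coats mitotic chromosomes, was at −1.79 and −0.32 in the spinal cord and at 0.29 and 0.80 in the duodenum and differed by 1.46 ± 0.41 (SE, limma adjusted p = 0.0126). The mitotic members not called were Cenpe, a kinetochore motor, at 0.60, and Mad2l1, the checkpoint protein MAD2, at 0.35. For every member measured on all 4 arrays, the duodenum arrays both lay above or both lay below the spinal cord arrays of the same label.

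**Figure D2:**
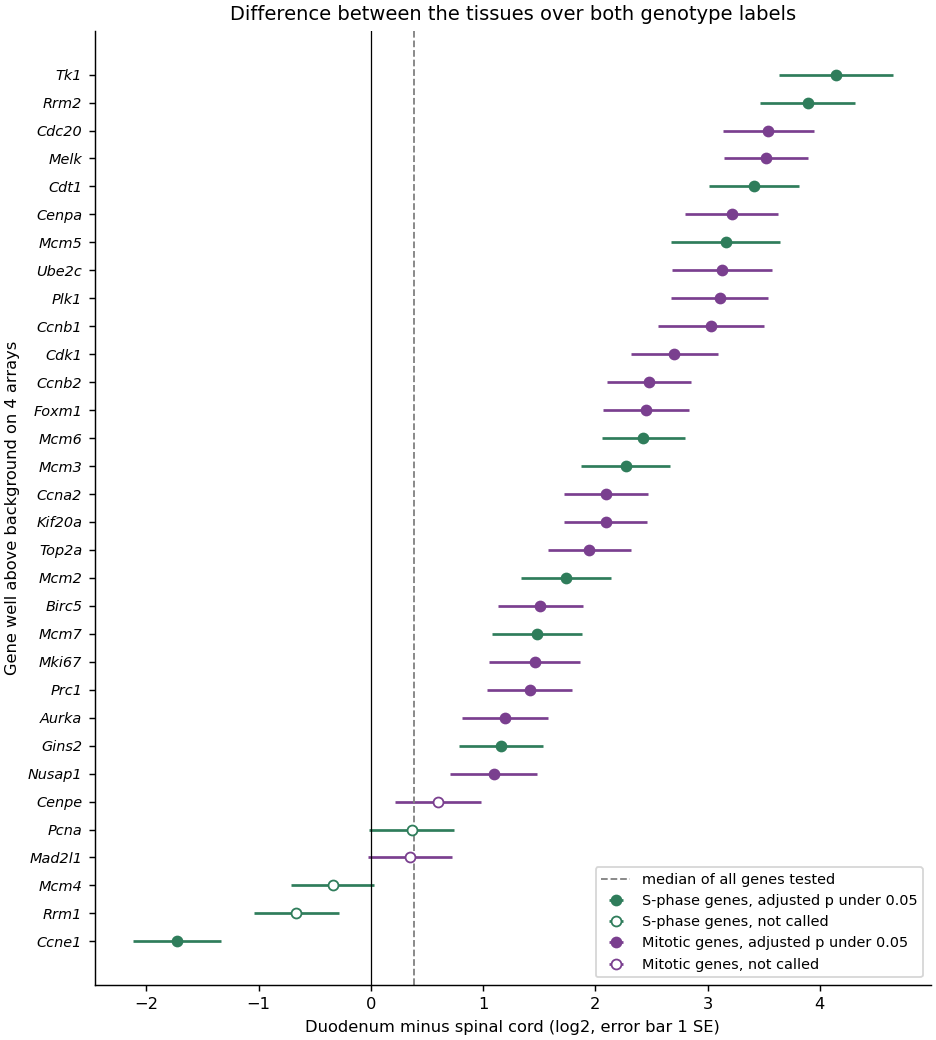
Duodenum minus spinal cord, in log2, for the 32 genes measured on all 4 arrays (x axis, limma estimate with 1 SE, arrays centred on the median gene), ordered by size along the y axis. Filled points are called at an adjusted p under 0.05. Green S-phase genes lie at both ends, from Tk1 at 4.14 to Ccne1 at −1.73, and purple mitotic genes are all above 0.

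Of 32 other S-phase genes tested, 12 were called higher in the duodenum, near the 37.1% of all genes, and 4 lower, against 21.6%. Their median of 0.46 was close to the 0.38 of all genes. Of 39 other mitotic genes, 20 were called higher and 5 lower, with a median of 1.03. Of 29 G1 and arrest regulators, 12 were called higher and 3 lower, with a median of 0.85.

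In the spinal cord, the mitotic genes were higher on the KO array than on the WT array, whereas the S-phase genes differed less. The median log2 difference, KO minus WT, was 0.72 over the 23 mitotic members measured on both arrays and 0.11 over the 15 S-phase members, when the median of all 24165 genes measured on both was −0.04. The mitotic median thus exceeded the S-phase median by 0.61, a difference that was −0.91 with normexp background correction and 0.24 with normexp once flagged local backgrounds were replaced. Of all 38 members measured, 4 were at least 2-fold higher, against 1.92% of all genes, and 0 at least 2-fold lower, against 0.53%. At 1.5-fold, 18 were higher, against 4.51% of all genes, and 15 of these were mitotic. At the same threshold 1 was lower, against 2.45%. The technical SD of a difference, taken from probes spotted 10 times on an array, had a median of 0.084 over the members, and 20 of 23 mitotic members were higher and 1 lower by more than 2 technical SDs. Of the 15 S-phase members, 7 were higher and 1 lower by that measure. The share of all genes past it was not computed. From the 25th to the 75th percentile, the differences of all genes ran from −0.16 to 0.10. The technical SD covers spots and not mice.

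The 4 genes past 2-fold were Ube2c, Mki67, Ccnb1 and Top2a. Ube2c had a signal of 64.1 on the WT and 195 on the KO array and was 2.83-fold higher (technical SD 0.0875 on the log2 scale). Mki67 had signals of 261 and 776 and was 2.77-fold higher (1.47 ± 0.067, technical SD). The second probe of Ube2c differed by 1.30 in the same direction, and that of Mki67 had signals of 195 and 594. Ccnb1 had signals of 39.1 and 90.3, a difference of 1.11, and Top2a, the topoisomerase that untangles sister chromatids, 16.5 and 37.5, a difference of 1.08. Bub1, a spindle checkpoint kinase, was measured only on the KO array, with signals of 5.32 and 14.9. Its scaled levels were 2.61-fold apart (technical SD 0.348 on the log2 scale), with the WT value not well above background. All of these genes had higher raw signals on the KO array as well as higher scaled levels.

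The genes of the spindle and of cytokinesis lay close together. Prc1, which bundles the central spindle, differed by 0.94, Kif11, the motor that separates the spindle poles, by 0.93, Kif20a, a motor of the central spindle, by 0.92, Nusap1, a spindle microtubule protein, by 0.77, and Tpx2, which activates Aurora A on the spindle, by 0.69. The second probe of Tpx2 differed by −0.03. Cenpa differed by 0.91, Ccnb2 by 0.89, Cdk1 by 0.79 and the checkpoint kinase Bub1b by 0.72. The other probes of Cdk1 were not measured on either spinal cord array, and the mean over its probes differed by 0.29. Melk differed by 0.70, Cenpe by 0.61, Cdc20 by 0.55, Plk1 by 0.45 and Ccna2, a cyclin of S phase and mitotic entry, by 0.44. Birc5, the survivin subunit of the passenger complex, differed by 0.30, or by 0.55 and 0.67 on its other probes. The smallest differences were those of Aurka, the kinase of spindle poles, at 0.19, Foxm1, a transcription factor of mitotic genes, at 0.17, and Mad2l1, at −0.05. Cdc25c, the phosphatase that activates CDK1, went the other way, with signals of 10.7 and 6.35 and a difference of −0.85 ± 0.269 (technical SD).

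Among the 15 S-phase genes measured on both spinal cord arrays, those at least 1.5-fold higher were the nucleotide supply genes Tk1 and Rrm2 and the helicase subunit Mcm5. Tk1 had signals of 75.8 on the WT and 159 on the KO array, a difference of 0.97 ± 0.09 (technical SD). Rrm2 had signals of 245 and 482, a difference of 0.88, and Mcm5 of 141 and 243, a difference of 0.68. The other 5 MCM subunits differed by between −0.04 (Mcm4) and 0.22 (Mcm3). Gins2 differed by 0.28 and Cdc45, its partner on the active helicase, by 0.08. Pcna (−0.05), Cdt1 (−0.02), Rrm1 (0.06) and Tyms, thymidylate synthase (0.02), differed by less than 1 technical SD. Ccne1 differed by −0.22. Cdc6, which helps to load the MCM ring, was measured only on the KO array, with signals of 4.68 and 8.98. Its scaled levels were 1.79-fold apart (technical SD 0.377 on the log2 scale), with the WT value not well above background. Of the mitotic members with a promoter, the 12 whose promoter held CHR letters had a median of 0.90 and the 6 without had a median of 0.65. The order was the opposite in the duodenum, where 10 with CHR letters had a median of 0.10 and 6 without 0.61.

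**Figure D3:**
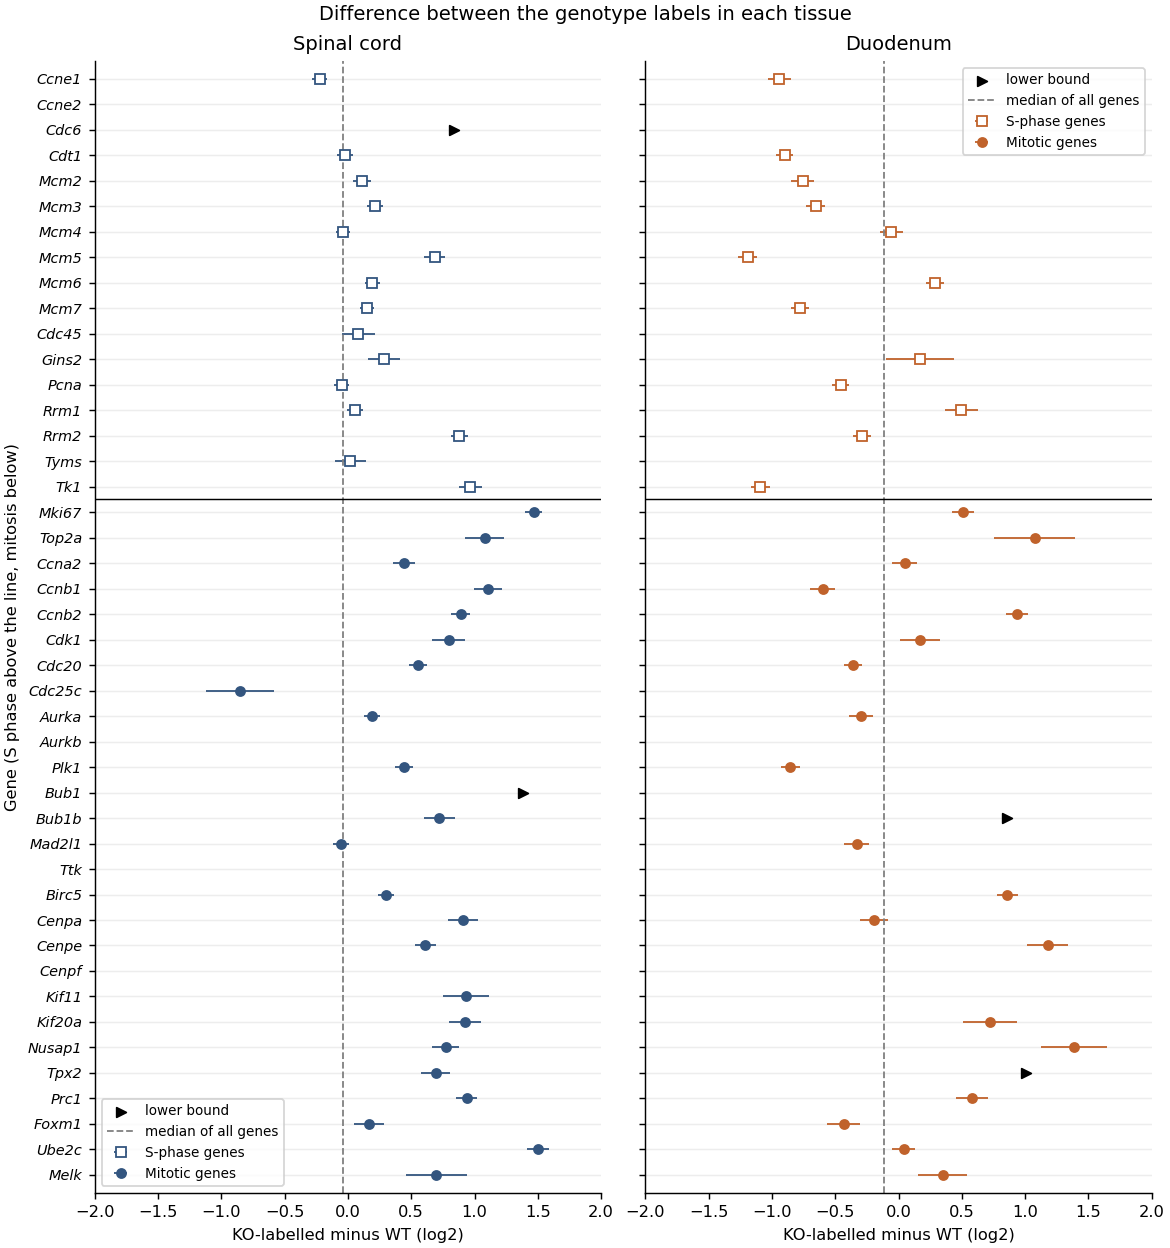
Log2 difference KO minus WT for each gene (x axis) in the spinal cord (left) and the duodenum (right), with S-phase genes as open squares above the line and mitotic genes as filled circles below it. Error bars are 1 technical SD from repeated spots and the dashed line is the median of all genes. Triangles, labelled as lower bounds, are genes measured on the KO array only. For Bub1 and Cdc6 in the spinal cord they stand at the plain difference. In the spinal cord most mitotic genes lie between 0.4 and 1.5 and 12 of 15 S-phase genes below 0.3. In the duodenum most S-phase genes lie below 0 and the mitotic genes spread to both sides.

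The direction of the mitotic result depended on the background correction. It was kept when the arrays were scaled by quantiles, with medians relative to all genes between 0.70 and 0.72. Scaling by the array medians or on spiked-in controls takes 1 constant off each array. The median relative to all genes, 0.76, could therefore not change with them. With normexp correction of the local background the mitotic median turned to −0.72. It was 0.35 once flagged local backgrounds were replaced by the median of the array. The highest flagged background on the WT spinal cord array was 15708.

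Markers of cells that do not belong to the cord parenchyma moved with the mitotic genes in the spinal cord. Of 16 bone marrow myeloid genes, all measured, 10 were at least 2-fold higher on the KO array, with a median difference of 1.16, and their summed level, in units of the 75th percentile, was 64.7 on the WT and 125 on the KO array. The corresponding values were 9 of 13, a median of 1.25 and sums of 230 and 353 for red cell precursors, and 6 of 14, a median of 0.92 and sums of 1.499 and 2.13 for lymphocytes. Ctsg and Mpo, granule proteins of myeloid precursors, differed by 1.76 and 1.69, and the B cell gene Ms4a1 by 2.20. All 16 myeloid genes were higher on the KO array, but 11 of 13 red cell and 12 of 14 lymphocyte genes. The lymphocyte genes that were lower were Cd3e (−0.42) and Cd4 (−0.23). Of 11 skeletal muscle genes measured, 9 were at least 2-fold higher (median 4.02, sums of 30.2 and 101), as were 6 of 10 Schwann cell genes (median 1.64, sums of 13.9 and 43.6), several of which oligodendrocytes also express. On the WT cord array all 16 myeloid, 13 red cell and 10 Schwann cell genes, 14 of 19 lymphocyte genes and 11 of 12 muscle genes were measured, so these markers were not at 0 there. The neuron, astrocyte, oligodendrocyte and microglia lists had no gene at least 2-fold apart and medians between −0.10 and 0.17. Oligodendrocyte precursors, the main dividing glia of the adult cord, had a median of 0.03 over 9 genes, with Gpr17 at 0.95. The list values were taken without normexp correction, with which the mitotic result changed. The part of these cell types in the mitotic result was not tested.

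The other mitotic genes showed a weaker form of the same difference in the spinal cord, whereas the other S-phase genes lay near the −0.04 of all genes. At least 2-fold, 1.92% of all genes were higher and 0.53% lower. Of 53 other mitotic genes measured, 4 were at least 2-fold higher, 0 lower, and the median was 0.24. The largest were Pbk, a mitotic kinase (1.90), Cdca8, a subunit of the passenger complex (1.13), and Cdca2, a chromatin phosphatase adaptor, with signals of 5.87 and 13.5. Of 38 other S-phase genes, 2 were at least 2-fold higher, the repressor E2f8 (1.60) and the activator E2f2 (1.11), and the median was −0.06. Mcm10, an initiation factor, differed by −0.89. Of 31 G1 and arrest regulators, 1 was at least 2-fold apart, Cdkn2a, the gene of the arrest proteins p16 and p19, at −1.02, with signals of 36.9 and 19.6. Cdkn1a, the gene of the inhibitor p21, differed by −0.57 and the list by a median of 0.05.

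In the duodenum, the S-phase genes were mostly lower on the KO array and the mitotic genes went both ways. The median log2 difference was −0.66 over the 13 S-phase members measured on both arrays and 0.17 over the 19 mitotic members, when the median of all 16810 genes was −0.11. The mitotic median exceeded the S-phase median by 0.82, a difference that was −0.11 with normexp background correction, where the S-phase median relative to all genes moved from −0.54 to −0.14. It was 0.54 with the mean of all probes of a gene and 0.48 with genes measured on at least 1 array. Of the 32 members, 3 were at least 2-fold higher, against 7.36% of all genes, and 2 at least 2-fold lower, against 14.7%. At 1.5-fold, 6 were higher, against 18.2% of all genes, and 9 lower, against 28.3%. All 6 were mitotic, and 7 of the 9 were of S phase. These shares over all members are near those of all genes. The WT duodenum array was dim, and the brightest probes of 12 members were not well above background there. Every member measured on both duodenum arrays had a higher raw signal on the KO array. Higher and lower are thus relative to the 75th percentile of each array, 68.0 on the WT and 323 on the KO array.

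Tk1 and Mcm5 were the S-phase genes past 2-fold. Tk1 was at 1.74 on the WT and 0.65 on the KO duodenum array, 2.13-fold lower (−1.09 ± 0.075, technical SD). Mcm5 was at 1.57 and 0.37, 2.29-fold lower (−1.19 ± 0.078, technical SD). Their raw signals were higher on the KO array, 227 and 505 for Tk1 and 201 and 418 for Mcm5, so both fell only relative to the array. Both genes were higher on the KO array in the spinal cord, where normexp turned Tk1 to −0.88 and Mcm5 to −0.35. Ccne1 differed by −0.94, Cdt1 by −0.90, Mcm7 by −0.78, Mcm2 by −0.76, Mcm3 by −0.66, Pcna by −0.46 and Rrm2 by −0.29. Mcm4 was close to equal at −0.06, so the helicase subunits did not differ alike. The S-phase genes on the other side were Rrm1 at 0.49, Mcm6 at 0.29 and Gins2 at 0.17. The dimmer probe of Ccne1 was measured on the KO array only. Cdc6, Cdc45 and Tyms, too, were measured on the KO array only, with bounds that allow no fold.

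The mitotic genes past 2-fold in the duodenum were Nusap1, Cenpe and Top2a. Nusap1 was at −3.45 on the WT and −2.06 on the KO array, 2.62-fold higher (1.39 ± 0.259, technical SD). Cenpe was at −2.45 and −1.27, 2.26-fold higher (1.18 ± 0.163, technical SD), and Top2a at −3.68 and −2.60, 2.11-fold higher (1.07 ± 0.322, technical SD). Ccnb2 differed by 0.94, Birc5 by 0.86, Kif20a by 0.73, Prc1 by 0.58 and Mki67 by 0.51. The other probes of Birc5 differed by −0.08 and 0.06, so its difference rests on 1 probe. Tpx2 and Bub1b were measured on the KO array only and were at least 2.01-fold and at least 1.81-fold higher. A second probe of Tpx2, measured on both arrays, differed by −2.97, so its probes disagree. Cdc25c, Bub1 and Kif11 had bounds that allow no fold.

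Other mitotic genes were lower on the KO duodenum array. Plk1 was at 1.78 and 0.92 (−0.86 ± 0.076, technical SD) and Ccnb1 at −0.50 and −1.10 (−0.60 ± 0.099, technical SD). A dimmer probe of Ccnb1, also measured on both arrays, differed by −1.44. Its dimmest probe, measured on the KO array only, had signals of 1.06 and 17.3, and the mean over the probes of Ccnb1 differed by −0.085. Foxm1 differed by −0.43, Cdc20 by −0.36, Mad2l1 by −0.33, Aurka by −0.30 and Cenpa by −0.19. Cenpa, Melk (0.35), Cdk1 (0.17), Ccna2 (0.05) and Ube2c (0.04) differed by less than 2 technical SDs. A dimmer probe of Cdk1 was measured on the WT array only, with signals of 4.89 on the WT and 4.26 on the KO array. On their brightest probes, the pair of B-type cyclins stood on opposite sides in the duodenum, with Ccnb2 at 0.94, while both were higher on the KO array in the spinal cord. With normexp correction, the median of the mitotic members relative to all genes turned to −0.25 and Top2a, Cenpe and Nusap1 were lower on the KO array, with the flagged backgrounds replaced or not. Normexp adds an offset of 50 to each signal, and the WT signals of these 3 genes were between 5.31 and 12.4. Scaled on spiked-in controls, which moved the median of all genes to 2.89, all 32 members were at least 2-fold higher.

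The duodenum arrays also differed in markers of other cells. Of 14 pancreatic acinar genes, 9 were at least 2-fold lower on the KO array, with a median of −1.78 and summed levels of 20526 on the WT and 6988 on the KO array. Of 8 red cell genes measured, 6 were at least 2-fold lower, with a median of −2.77 and sums of 1534 and 90.1. The lymphocyte sum was 219 and 93.6, and the brightest gene in it was Jchain, at −1.55. Of 14 lymphocyte genes, 2 were at least 2-fold lower and 1 higher, near the 14.7% and 7.36% of all genes. Their median was 1.1e-05. No acinar marker was at 0, since all 14 were measured on both arrays. Of 13 crypt stem cell genes measured, 0 were at least 2-fold apart in either direction, and the median was 0.12. Of 18 enterocyte genes, 3 were lower and 1 higher, with a median of 0.06 and sums of 3241 and 1753. The part of these differences in the values of the division genes was not tested.

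The medians of the other division genes of the duodenum stayed near the −0.11 of all genes. At least 2-fold, 7.36% of all genes were higher and 14.7% lower. Of 32 other S-phase genes measured, 5 were at least 2-fold lower and 0 higher, with a median of −0.24. E2f7 (−1.63), E2f1 (−1.41) and Pold1, the catalytic subunit of DNA polymerase delta (−1.30), were the largest. Of 39 other mitotic genes, 1 was at least 2-fold higher, the chromatin protein gene Hmgb2 (1.05), and 2 lower, the cytokinesis genes Cit (−1.65) and Cep55 (−1.42), with a median of −0.11. A further 19 of that list were measured on the KO array only. Of all genes, 65.6% were measured on the KO and 51.8% on the WT duodenum array. Of 29 G1 and arrest regulators, 2 were at least 2-fold lower, Trp53 (−1.15) and Ccng2 (−1.05).

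**Figure D4:**
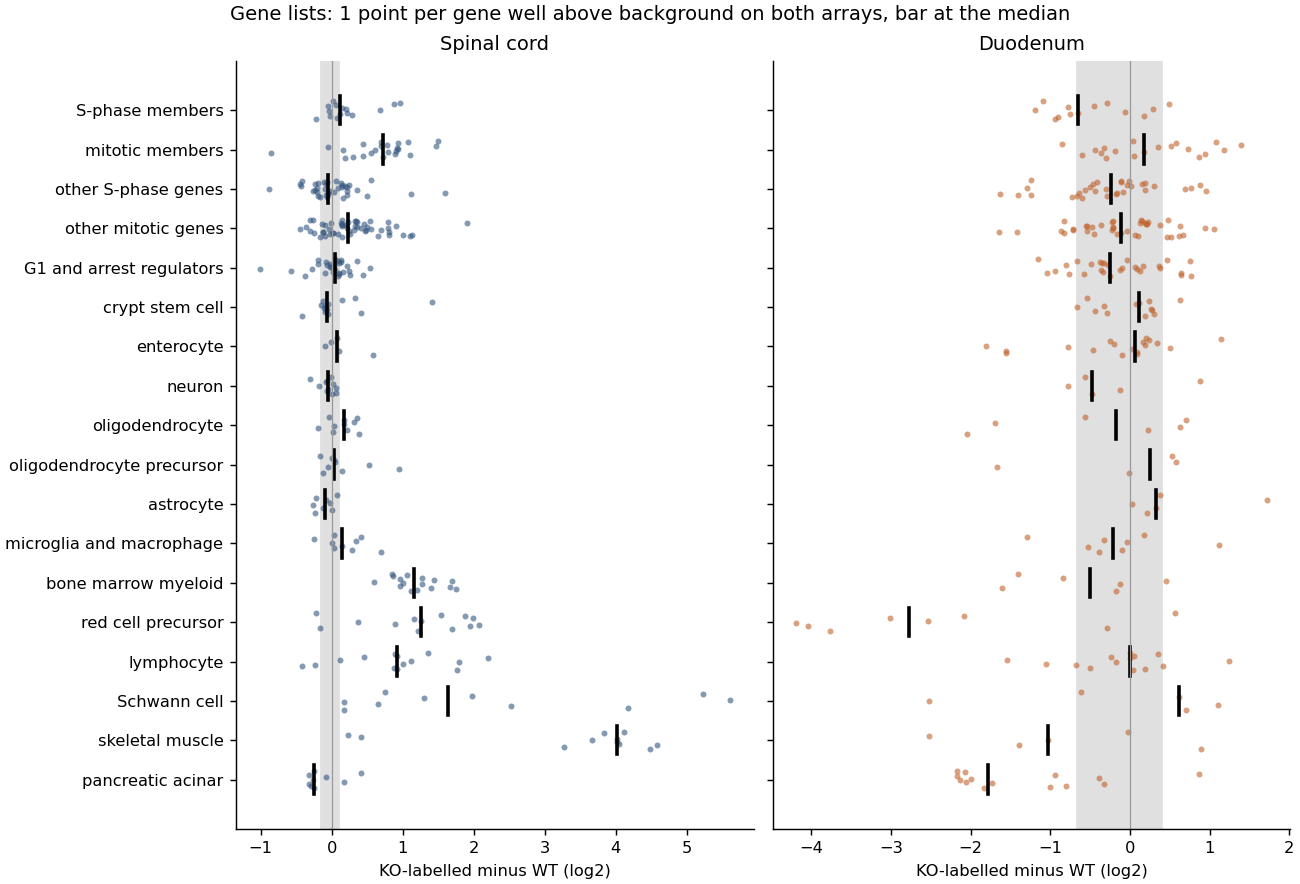
Log2 difference KO minus WT (x axis) for the 44 genes by phase and for the other gene lists (y axis), with 1 point for each gene measured on both arrays, a black bar at the median and the grey band from the 25th to the 75th percentile of all genes. In the spinal cord (left) the medians of the mitotic, marrow, red cell, lymphocyte, Schwann cell and muscle genes lie furthest right of the band. Those of the S-phase, other mitotic, oligodendrocyte and microglia genes lie just right of it. In the duodenum (right) the medians of the red cell, acinar and muscle genes lie left of the band and that of the Schwann cell genes right of it.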

How the data were processed

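RNA of 4 samples, 1 per genotype label and tissue, was measured on one-colour Cy3 mouse arrays. The authors deposited the scanner output of Agilent Feature Extraction 11.5.1.1, whose processed signal is an intensity with background subtracted and spatial trends removed on each array, and a table of log2 values, which follows the same signals normalized by quantiles across the arrays. Here, control spots and outlier spots (89 to 133 of 43020 an array) were left out and log2 of the processed signal was averaged by probe. No probe was saturated. From these log2 values the 75th percentile over the probes of that array was taken off. Accessions were named through RefSeq of GRCm38.p6, which matched 25862 of 26391 NM probes. Of several probes of a gene, the brightest on average was used. Members and gene lists were chosen with earlier results of these data known. The 44 members are all named; from other lists, the 3 genes that differed most in a tissue, or the brightest 3 of a cell type list, could be named.

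A gene not well above background on 1 array gives a bound. For it, its own value or the lowest measured value of that array, whichever was higher, was taken. In the spinal cord the own values of Bub1 and Cdc6 were the higher, so their folds are estimates rather than lower bounds. Genotypes were compared with no test, by medians and counts beside those of all genes. The technical SD is the median over the 50 probes nearest in brightness of those with at least 9 usable spots. Tissues were compared with limma 3.58.1 in R 4.3.3 (lmFit and eBayes, genotype and tissue, 1 residual and 8.05 prior degrees of freedom), tested on simulated data. Whether the tissues of a label came from the same mouse is not given in the sources used here, and the number of arrays limits the precision. Normexp was run on median spot and background signals, since mean signals were not used here. Other calculations used Python with numpy and pandas. Alternatives are given in the closing section. The median of the 500 genes nearest in level and the difference of the 2 phase medians were added after seeing the data.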

Additional observations from a re-analysis of the deposited data

Results flagged for a closer look

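Tk1 and Mcm5, S-phase genes, stood out because their genotype difference went opposite ways in the tissues by more than 0.5 from the median gene in each. Tk1 differed by 0.97 in the spinal cord and −1.09 in the duodenum, KO minus WT, and the tissues were −2.06 apart. Mcm5 differed by 0.68 and −1.19, and the tissues were −1.88 apart. With 1 array per genotype and tissue, neither difference was tested. With normexp both genes were lower on the KO array in both tissues (spinal cord Tk1 −0.88 and Mcm5 −0.35, duodenum −0.73 and −0.70), and with flagged backgrounds replaced the spinal cord values were 0.62 and 0.55.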

How the results depend on the processing

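Group medians are given relative to the median of all genes, as KO minus WT on the log2 scale. No paired analysis was possible because the labels give no replicate numbers to pair and 1 array to each label in a tissue. The tissue comparison already holds the genotype label as a term, and leaving out an array ends its comparison. With normexp, the spinal cord mitotic median was −0.72 (main value 0.76) and mitotic minus S-phase −0.91 (0.61), 0 members were at least 2-fold higher and 15 lower (4 and 0), Top2a was at −1.86, Ccnb1 at −1.17 and Ube2c at −0.43. In the duodenum the S-phase median was −0.14 (−0.54), the mitotic −0.25 (0.28) and their difference −0.11 (0.82), 1 member was 2-fold higher and 1 lower (3 and 2), and Top2a was at −0.81, Cenpe at −0.088 and Nusap1 at −0.66. The tissue medians were 0.79 for S-phase and 0.86 for mitotic members (1.36 and 1.71). With flagged backgrounds replaced, these spinal cord values were 0.35 and 0.24, with 2 members higher. The duodenum values were −0.14, −0.25 and −0.11, with 1 higher and 1 lower, Top2a at −0.81, Cenpe at −0.087 and Nusap1 at −0.66, and the tissue medians 1.16 and 1.56. Scaling on spiked-in controls gave 2 members higher and 1 lower for the spinal cord and, for the duodenum, 32 higher and 0 lower, and Mcm5 was at 1.81 and Tk1 at 1.91. The deposited table gave a duodenum mitotic median of 0.18, 1 member lower and tissue medians of 1.67 and 2.15. Quantiles of the 4 arrays gave 0.19, 1, 1.67 and 2.14, and quantiles within a tissue a duodenum S-phase median of −0.63. The mean of a gene's probes gave a duodenum S-phase median of −0.31, a difference between the phases of 0.54 and 4 members lower. With genes measured on at least 1 array, the duodenum medians were −0.37 and 0.11, 0.48 apart. Against the 500 genes nearest in level they were −0.67 and 0.17. At 1.5-fold, the spinal cord had 18 members higher and 1 lower, and the duodenum 6 higher and 9 lower. With no filter, 5 were higher and 8 lower in the duodenum, the tissue medians were 1.12 and 1.47, and 0 members were called lower in the duodenum. The other 95 values computed for the groups stayed within the technical SD or within 1.5 times the count. Of these, the group medians under scaling by array medians or on spiked-in controls could not move, since each takes 1 constant off an array. The calls of 26 members higher in the duodenum ranged from 23 to 28. The cause of these shifts was not tested. Signal over background limits the duodenum, where the brightest probes of 12 members were not well above background on the WT array.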
